A study of Arabidopsis thaliana with 6 samples.

Results

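ANAC069 and the stress NAC genes ANAC019, ANAC055, RD26 and NAP are 5 members of the NAC family of plant transcription factors, followed here on 6 Affymetrix ATH1 arrays of Arabidopsis thaliana. They were found by symbol, synonym or the words NAC domain among the 541 genes that the authors' up and down tables name. That search found 11 NAC genes in all, the 5 members and ANAC016, ANAC036, ANAC062, ANAC102, ATAF1 and ORS1, and all 11 stood in the up table. The 5 members were selected from those tables, which the authors had built on the same overexpression against knockout comparison. Their differences between genotypes are therefore a description and carry no test.

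NAC proteins bind DNA through a conserved domain at the N terminus and regulate transcription through a variable C-terminal part. ANAC069, also called NTM2, belongs to the NAC proteins that carry a membrane anchor and reach the nucleus after release from it. ANAC019, ANAC055 and RD26 are close relatives induced by drought, salt and abscisic acid (ABA) that act downstream of the jasmonate regulator MYC2, and NAP promotes leaf senescence.

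Total RNA came from 4-week-old plants given NaCl at 200 mM over 3 h. One group of 3 arrays (OE) was a line that overexpresses ANAC069, named OE-3, and the other group of 3 arrays (KO) was line KO-2, a knockout of the same gene by the insertion allele SALK_095231C. The design text calls the arrays of a group independent biological replicates, and each genotype was represented by 1 line. Neither the promoter that drives the overexpression nor the organ sampled is stated in the labels. Salt was common to both groups, and no wild-type or unsalted plants were analysed, so each value is a difference between 2 altered genotypes under salt. None of the 20 marker loci of leaf, root, flower and seed had a named probe set, so the tissue was not checked.

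On ATH1 arrays several short probes per transcript, together called a probe set, give 1 MAS5 signal in arbitrary units. Array medians were between 150 and 186. Differences are OE minus KO of log2(signal + 16), so that those of dim probe sets are understated, and signals of different genes are not compared with each other. In bulk RNA, fewer expressing cells and less RNA per cell cannot be told apart. Precision is limited by the number of arrays.

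The targeted gene separated the genotypes on every array. ANAC069 (AT4G01550) is placed by the authors' deposited table on chromosome 4 between 674024 and 676225, minus strand, with no genome build stated. Its signal was 386, 364 and 391 on KO replicates 1, 2 and 3 and 2991, 2386 and 2360 on OE replicates 1, 2 and 3. The lowest OE array was 6.03 times the highest KO array. The log2 difference of 2.70 (SE 0.14, n = 3 each) was the 17th highest of the 15922 probe sets tested.

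ANAC069 also varied least between KO arrays among the 11 NAC genes, with a coefficient of variation of 3.80% in KO and 13.8% in OE. In the other 10 NAC genes this value was between 7.94% and 44.7% in KO and between 8.55% and 48.7% in OE. Where the insertion lies with respect to the probes is unknown here, so the KO signal is not a measure of intact transcript.

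The NAC relatives linked to drought and ABA were higher in OE. With all arrays the difference was largest for ANAC019, but without OE replicate 3 it was 1.72 there and 1.78 for ANAC055. ANAC019 (AT1G52890, chromosome 1 from 19697291 to 19698444, minus strand) had signals of 500, 617 and 920 on KO replicates 1 to 3 and 1805, 2695 and 4726 on OE replicates 1 to 3. It had the widest spread of the 11 genes in OE, where the highest array was 2.62 times the lowest, yet the lowest OE array was still 1.96 times the highest KO array. The log2 difference was 2.09 (SE 0.34).

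RD26 (AT4G27410, chromosome 4 from 13707927 to 13709013, minus strand), a transcriptional activator of desiccation responses, had signals of 991, 891 and 710 on KO replicates 1 to 3. On OE replicates 1 to 3 they were 1962, 4052 and 2990. OE replicate 1 was the lowest of its group, and it was 1.98 times the highest KO array. The log2 difference was 1.73 (SE 0.25).

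ANAC055 (AT3G15500, chromosome 3 from 5234730 to 5235882, plus strand) had signals of 154, 105 and 254 in KO and 547, 637 and 417 in OE, in replicate order. Here the KO arrays spread more than the OE arrays, with coefficients of variation of 44.4% and 20.8%, and KO replicate 3 and OE replicate 3 lay nearest each other, 1.64-fold apart. The log2 difference was 1.61 (SE 0.29). RefSeq gives the symbol NAC3 both to this gene and to AT3G29035, named ORS1 here, so each was identified by its locus.

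NAP, the senescence regulator, was higher in OE with similar relative spread in both genotypes. NAP (AT1G69490, chromosome 1 from 26122232 to 26123222, plus strand) had signals of 713, 917 and 614 on KO replicates 1 to 3 and 2434, 3690 and 2892 on OE replicates 1 to 3. The lowest OE array was 2.65 times the highest KO array, the widest such gap after that of ANAC069 among the 11 genes. The log2 difference was 1.98 (SE 0.20), and the coefficients of variation were 20.6% in KO and 21.2% in OE.

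**Figure D1:**
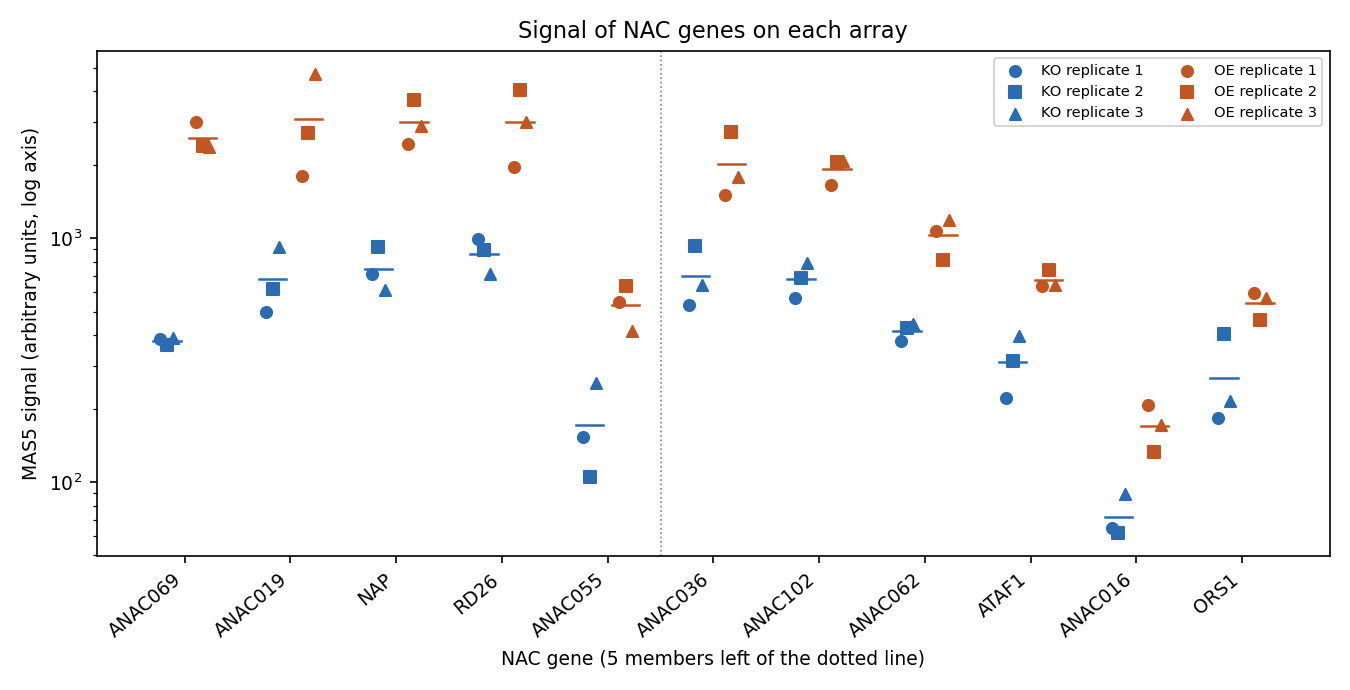
MAS5 signal (arbitrary units, log axis) of the 11 NAC genes on each array, with KO in blue, OE in orange, a marker shape for each replicate number and short lines at the means of 3 arrays. No gene's groups overlap, from 6.03-fold between the nearest KO and OE arrays for ANAC069 to 1.14-fold for ORS1. The genes were listed on this same comparison, and OE was wholly higher in 12.9% of all probe sets tested. Heights are not comparable between genes.

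Of a list of 58 further NAC loci, 6 had a named probe set, and 5 of these were called higher in OE (limma, Benjamini-Hochberg adjusted p under 0.05) and none lower, against 3.03% and 1.84% of all probe sets tested. These 6 have a name only because the authors listed them as higher on this same comparison, so nothing is read from that count. The remaining loci of the list were not analysed here. With all arrays, the 6 had smaller differences than the 5 members. This order did not hold without KO replicate 2, where ANAC036 was at 1.71 and ANAC055 at 1.34, or without OE replicate 1, where they were at 1.67 and 1.59. Nor did it hold with 64 in place of 16 before the log (ANAC036 1.43, ANAC055 1.38) or with an RNA quality covariate (ANAC102 1.79, ANAC055 1.51). ANAC036 (AT2G17040), which affects leaf form when overexpressed, had signals of 533, 930 and 641 in KO and 1510, 2735 and 1785 in OE, a log2 difference of 1.49 (SE 0.26). ANAC102 (AT5G63790), which is known from seed germination under low oxygen, had 571, 686 and 792 in KO and 1647, 2062 and 2071 in OE, a difference of 1.48 (SE 0.16). ANAC062 (AT3G49530) encodes another membrane-anchored NAC protein, known from cold and pathogen responses. It had 380, 427 and 443 in KO and 1070, 817 and 1190 in OE, a difference of 1.25 (SE 0.17).

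With all arrays, the lowest differences were those of ATAF1, ANAC016 and ORS1. ATAF1 (AT1G01720), a NAC factor of ABA and stress responses, had signals of 221, 313 and 396 in KO and 635, 739 and 645 in OE, a log2 difference of 1.11 (SE 0.21). ANAC016 (AT1G34180), a promoter of leaf senescence, had 64.8, 62.0 and 89.3 in KO and 207, 133 and 172 in OE, a difference of 1.08 (SE 0.23). ORS1 (AT3G29035), also a senescence factor, had 182, 404 and 216 in KO and 598, 460 and 569 in OE, a difference of 1.05 (SE 0.27). KO replicate 2 of ORS1 lay close to its OE arrays, with OE replicate 2 only 1.14 times higher.

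The median log2 difference was 1.98 over the 5 members and 1.18 over the other 6 NAC genes. It was -0.08 over all 15922 probe sets tested and 1.33 over the 322 tested genes that the authors' up table names. All 11 NAC genes had groups that did not overlap with OE higher, as had 12.9% of all probe sets tested, and none had OE wholly lower (18.3%). By the same rule 10 of the 11 were called higher in OE, all but ORS1, and none lower, again against 3.03% and 1.84% of all probe sets. The tables were chosen by the same comparison, so nothing is read from either count.

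The calls, like those over all probe sets, depended on single arrays. Only 4 genes, ANAC069, NAP, ANAC062 and ANAC102, were called without OE replicate 2, and the same 4 without OE replicate 3. Without KO replicate 2 the number was 6, ANAC019, RD26 and ANAC055 not among them. Calls higher over all probe sets fell in the same fits, from 483 with all arrays to 73, 88 and 153, in that order. Leaving out the variance trend of the fit gave 5 calls, with RD26 but neither ANAC019 nor ANAC055. Adjusting for RNA quality also gave 5, with ANAC019 but neither RD26 nor ANAC055. Over all probe sets, calls higher were 161 without the trend and 189 with that adjustment.

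In the authors' deposited table the fold of the members ran from 3.28 for ANAC055 to 6.74 for ANAC069. The limits of that table were taken here as a fold of 2 and an unadjusted p of 0.05. Among the NAC genes, ORS1 was nearest to both limits, with a fold of 2.14 and an unadjusted p of 0.0403 in the authors' deposited table. Just outside, with OE higher, 1 probe set had a fold of 1.998 and another had an unadjusted p of 0.0509, both computed here in the manner of the table, and neither has a name here. The same limits on all probe sets gave 481 higher and 473 lower, whereas the authors' deposited tables list 341 and 226, so the recomputed limits admit more than those tables hold.

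The size of each difference changed less than the calls. With each array left out in turn, the log2 difference of ANAC069 stayed between 2.59 and 2.76 and that of NAP between 1.82 and 2.14. RD26 ranged from 1.48 without OE replicate 2 to 2.004 without OE replicate 1. ANAC055 ranged from 1.34 without KO replicate 2 to 1.92 without KO replicate 3.

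ANAC019 had the widest range of the members, from 1.72 without OE replicate 3 to 2.41 without OE replicate 1. The 11 genes were in the table because OE was higher on these arrays, so the shared direction is not a sign of stability.

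**Figure D2:**
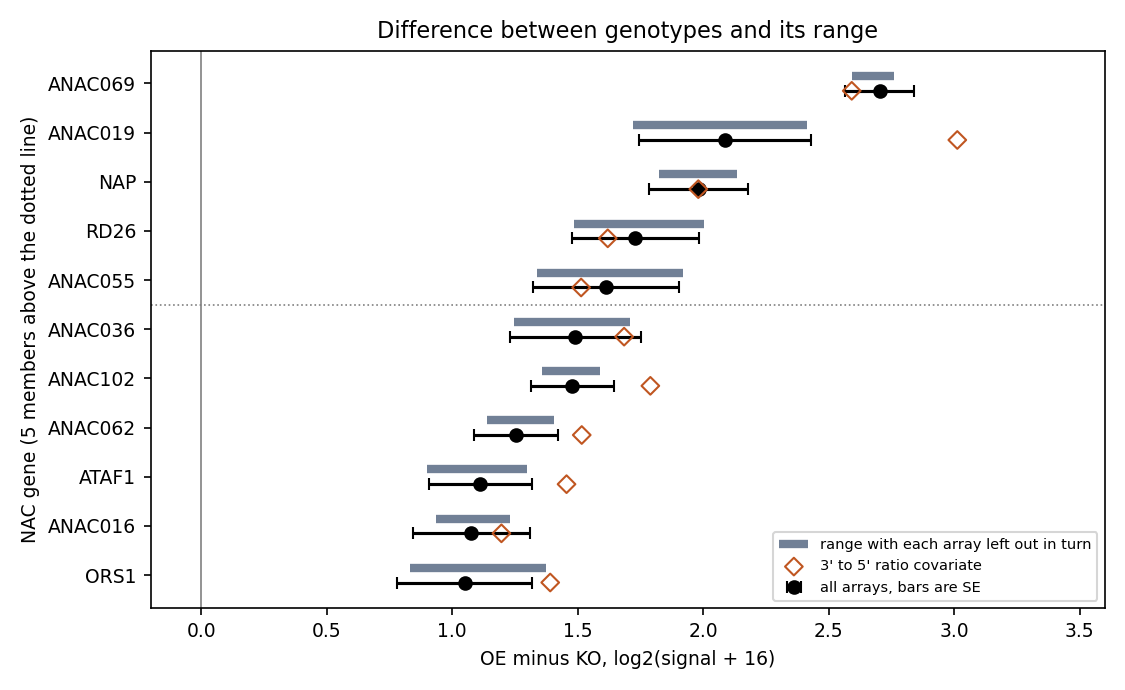
OE minus KO difference of each NAC gene on the log2(signal + 16) scale (x axis), with black points for all arrays and bars of 1 SE, grey bars for the range with each array left out in turn, and open diamonds for the fit with the 3' to 5' ratio of control genes as a covariate. ANAC069 is highest at 2.70 and has a narrow range, whereas ANAC019 goes from 2.09 to 3.01 with the covariate.

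Some signs of RNA quality lay apart between the genotypes, and others did not. The 3' to 5' signal ratio of a control transcript increases when RNA is degraded. In 3 of 6 such ratios, of an actin and both GAPDH controls, the lowest OE value exceeded the highest KO value, and the mean log2 ratio over all 6 was 1.88 in OE and 1.63 in KO. Each of those 3 ratios had an exact permutation p of 0.1 (two-sided, adjusted p = 0.2 over 6 ratios), an unadjusted value that is the smallest that 3 arrays against 3 allow. The groups overlapped in the mean ratio (exact permutation p = 0.2). They also overlapped in the remaining ratios (unadjusted exact permutation p between 0.4 and 0.6).

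With the mean ratio of each array as a covariate, the log2 differences of ANAC069, NAP, RD26 and ANAC055 were 2.59 (SE 0.21), 1.98 (SE 0.31), 1.62 (SE 0.40) and 1.51 (SE 0.46). All 4 were within 1 SE of the values without it. That of ANAC019 was 3.01 (SE 0.31), higher than without the covariate.

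Among the OE arrays, ANAC069 and the other members were in different orders. OE replicate 1 had the highest ANAC069 signal of the OE arrays, 0.22 above the group mean on the log2 scale. The same array had the lowest ANAC019, NAP and RD26 signals in OE, at 0.65, 0.28 and 0.55 below their group means. ANAC055 was an exception, 0.06 above its mean on OE replicate 1 and lowest on OE replicate 3. In KO, ANAC055 had the same order as ANAC069, with replicate 3 highest and replicate 2 lowest, while ANAC019, NAP and RD26 had other orders.

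Over the 10 NAC genes other than ANAC069, OE replicate 1 was the lowest OE array for 6. That is close to the share among all probe sets called higher in OE, 54.2%, while the share among all probe sets tested was 33.0%. In KO, replicate 1 was the lowest array for 6 of the 10, against 43.7% of the probe sets called higher. With 3 arrays a genotype, no correlation between ANAC069 and its relatives was computed within a genotype.

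**Figure D3:**
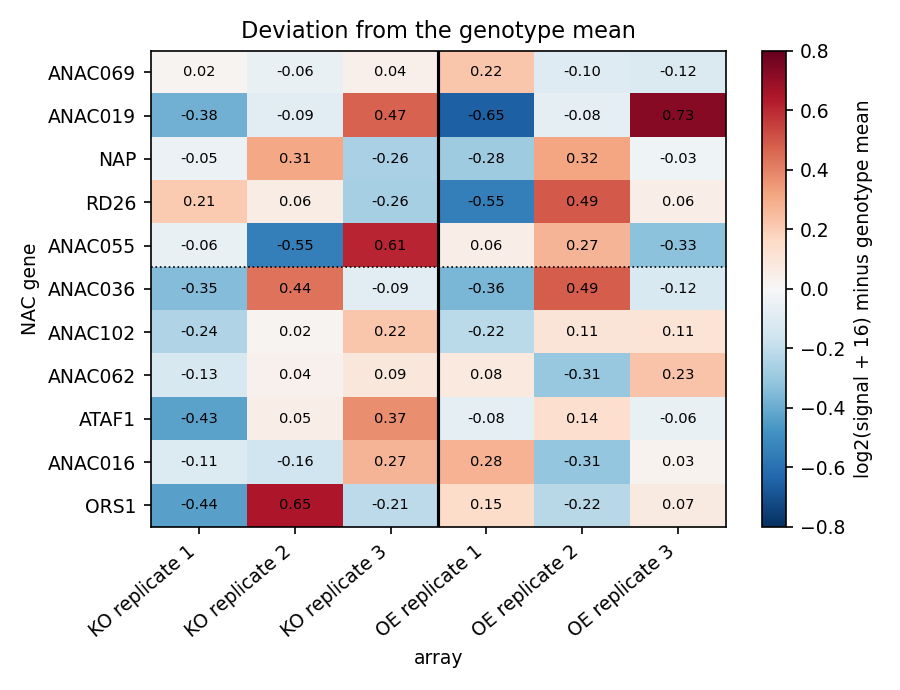
Deviation of each NAC gene (rows) from its genotype's mean on each array (columns), in log2(signal + 16) units, red above and blue below the mean. ANAC069 stays within 0.06 of its mean in KO, and on OE replicate 1 it is above its mean by 0.22 while ANAC019, NAP and RD26 are below theirs.

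Likeness of profile was measured as the root mean square difference over the 6 arrays between the log2 values of 2 genes, each taken minus its own mean. For each member the 3 nearest of the 539 other named and tested genes were taken. All 6 values include the difference between genotypes for which these genes were listed, so nearness in part repeats that difference. Of the named and tested genes, 322 came from the up table and the rest from the down table. A median distance over all of them therefore includes genes listed in the opposite direction. No median within the up table was computed.

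ANAC019 lay nearest to DREB2A (AT5G05410), a transcription factor of dehydration and heat responses, at 0.23. AT1G56660 followed at 0.24 and the MAP kinase gene ATMPK11 at 0.25, while the median over all named genes, up and down, was 0.74. AT1G56660 was dim in KO, with signals of 19.9, 19.1 and 70.0 on replicates 1 to 3. Differences between such dim arrays are understated, so its distance depends on the amount added before the log. Whether its place among the nearest holds with another amount was not tested. DREB2A had signals of 196, 276 and 330 in KO and 964, 1570 and 2465 in OE, in replicate order, so its lowest and highest arrays in each genotype were those of ANAC019.

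ANAC055 lay nearest to CRK11 (AT4G23190), a cysteine-rich receptor-like kinase gene, at 0.11. This was the smallest distance found for any member. CRK11 had signals of 48.3, 24.9 and 76.7 in KO and 148, 207 and 136 in OE, with the same highest and lowest array in each genotype as ANAC055. CRK11 was thus dim in KO, so its distance too depends on the amount added before the log. Another amount was not tested. The next were the lipid acyl hydrolase gene PLA2A at 0.18 and AT3G22160 at 0.25.

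RD26 had AT3G07350, AT1G76590 and AT1G21000 nearest, at 0.18, 0.18 and 0.21. NAP had AT4G28703 and AT5G10695 nearest, at 0.22 each, and RD26 next at 0.24. The pair of NAP and RD26 was the only case in which a member was among the 3 nearest of another. Among the 11 NAC genes the closest pair was ANAC016 and ANAC062, at 0.18.

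ANAC069 had no gene as close as the other members had. Its nearest were AZF2 (AT3G19580), a zinc finger repressor gene of ABA and salt responses, at 0.31, then AT2G41640 at 0.35 and the heat shock factor gene HSFA4A (AT4G18880, listed as HSF A4A) at 0.43. The median over all named genes, up and down, was 0.88. AZF2 had signals of 261, 251 and 238 in KO and 1356, 1218 and 2048 in OE.

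**Figure D4:**
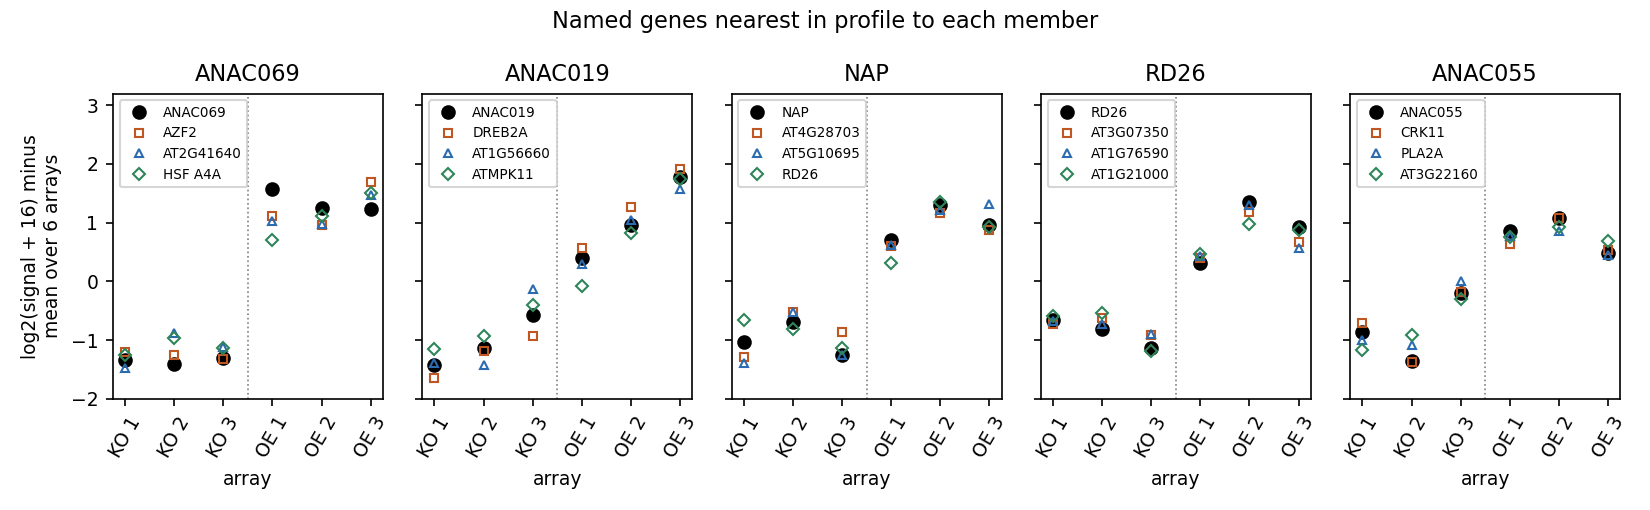
Log2(signal + 16) minus the mean over the 6 arrays (y axis) on each array (x axis) for each of the 5 members (black) and the 3 named genes nearest to it (open symbols). CRK11, which is dim in KO, lies closest to ANAC055, at 0.11, and the nearest gene to ANAC069, AZF2, is at 0.31.

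Genes that act around these NAC factors were taken from 4 lists. Of the 10 loci of the MYC2 and salicylate branch, MYC2 alone had a named probe set. MYC2 (AT1G32640), which encodes the transcription factor upstream of ANAC019, ANAC055 and RD26 in jasmonate responses, had signals of 532, 806 and 744 in KO and 1437, 1375 and 2141 in OE. The log2 difference was 1.22 (SE 0.22), and the gene was called higher. The salicylate synthesis gene ICS1, which the trio represses, and the other 8 loci of that list were not analysed here.

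In the list of dehydration and ABA-responsive genes, 2 of 14 loci were named and 1 was called higher, the dehydrin gene ERD10, with a log2 difference of 1.17 (SE 0.18). NCED3 (AT3G14440), the gene of a key ABA synthesis enzyme, had signals of 123, 100.3 and 182 in KO and 201, 609 and 456 in OE. Its log2 difference of 1.44 (SE 0.38) was larger than that of ERD10, and its groups did not overlap. OE replicate 1 was only 1.10 times the highest KO array, and the gene was not called. ERD1, whose promoter served to isolate ANAC019, ANAC055 and RD26, was not analysed here.

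Of 15 loci of ABA signalling, 2 were named. The phosphatase gene ABI1, a negative regulator of ABA signalling, was called higher, with a difference of 1.07 (SE 0.20). HAI2 (AT1G07430), an ABA-induced phosphatase gene of the same family, had signals of 111, 76.4 and 97.4 in KO and 145, 348 and 305 in OE. Its log2 difference of 1.27 (SE 0.31) was larger than that of ABI1 and its groups did not overlap, but it was not called.

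Of 14 loci of senescence and chlorophyll breakdown, 3 were named and all 3 were called higher. These were WRKY53 (log2 difference 3.29, SE 0.27), WRKY22 (1.40, SE 0.30) and the senescence-associated gene SAG21 (AT4G02380), whose signals were 1161, 1964 and 2535 in KO and 3960, 4849 and 5884 in OE (1.42, SE 0.27). SAG12, the common late marker of senescence, and the chlorophyll breakdown gene NYE1 were not analysed here.

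Of the 6 calls in these lists, only WRKY53 was made with each array left out in turn. Leaving out KO replicate 1, 2 or 3 gave 6, 1 or 3 calls. Leaving out OE replicate 1, 2 or 3 gave 7, 2 or 1, and the ratio covariate gave 3. In the same fits, calls higher over all probe sets were 555, 153 or 243, then 507, 73 or 88, and 189, against 483 with all arrays.

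These 8 genes carry a name only because the authors listed them on the same arrays, and the 3.03% of all probe sets called higher applies here too. Their medians by list, from 1.17 to 1.42, lie near the 1.33 of all named and tested genes in the up table.

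Annotation and gene order describe the NAC genes beyond their signals. All 11 carry the annotation of transcription factor activity in the authors' deposited tables, as do 64 of the 541 named genes (11.8%). That term follows from the search for NAC genes. ANAC019, ANAC055 and RD26 carry response to water deprivation (2.96% of named genes), while ANAC016, ANAC036 and ANAC062 carry response to chitin (8.13%). Of the 11, ANAC069 is the only one annotated as integral to membrane, a term that 11.6% of named genes carry, and NAP the only one annotated to leaf senescence. None of the 11 is annotated to the response to salt stress (2.59% of named genes). These annotations are incomplete. ANAC062 lacks the membrane term although it encodes an anchored protein, and ANAC019, ANAC055 and RD26 lack the salt term although they are salt-induced.

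By gene order in RefSeq (assembly TAIR10.1), 4 of the 11 lie directly beside another NAC gene: ANAC069 beside NTM1 (ANAC068), ANAC019 beside NAM (ANAC018), ANAC055 beside NAC2 (ANAC056) and ANAC016 beside NAC017. Levels of those 4 neighbours, and of ANAC067, were not analysed here.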

How the data were processed

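Values are the authors' deposited intensity of each probe set on a linear scale, made with MAS5 per the submitters' processing notes, with no version given in the sources used here. For 567 probe sets, the authors' deposited up and down tables list a fold without sign and a p-value. That fold is not the ratio of mean signals. It was 3.28 for ANAC055 and 4.33 for ANAC019, where the ratios of mean signals, OE over KO, were 3.12 and 4.53. The 48 columns of single arrays in those tables match no sample label and were not used. Names came from the Entrez identifiers of those tables matched to RefSeq (TAIR10.1): 541 matched 1 gene, 21 several, 4 none and 1 was not found.

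Groups came from the sample titles. The fit of OE against KO used limma 3.58.1 in R 4.3.3 (eBayes with a variance trend) on log2(signal + 16). The 64 control probe sets and those at or below the 30th percentile of mean log2 value were left out, which kept 15922. Adjusted p-values used a threshold of 0.05. SEs are from that fit. Control ratios were compared by exact permutation with SciPy 1.17.1. The limma steps were tested on data simulated from these arrays.

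Members, lists, tests and the rule for named genes were chosen with earlier results of these data known. The rule named the 5 members, every other NAC gene of the tables, up to 4 genes per list, and the 3 nearest profiles per member. A comparison of promoters and proteins of the members was planned and not run, since no sequences were used here.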

Additional observations from a re-analysis of the deposited data

How the results depend on the processing

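Of 164 log2 differences of the 11 NAC genes under the alternatives, none changed sign and 5 moved by more than 1 SD between arrays, 4 of them (ANAC019, ANAC062, ANAC102, ATAF1) upward with the 3' to 5' ratio covariate and ANAC016 downward with 64 in place of 16 before the log. The 11 genes were listed for higher OE signals on these same arrays, so the unchanged sign is not a sign of stability. The median difference of the 5 members stayed between 1.78 and 2.12 on those arrays. Calls over all probe sets, 483 higher and 293 lower, were fewer with no filter on dim probe sets (261 and 76), without the variance trend (161 and 43) and with the ratio covariate (189 and 19), and NAC genes called fell from 10 to 5 in the last pair of fits. Under the authors' apparent limits 481 were higher and 473 lower. With each array left out in turn, between 73 and 555 were higher, between 7 and 856 lower, and between 4 and 9 NAC genes were called; the cause was not tested. A replicate block gave 238 higher and 37 lower calls and 7 NAC genes. No pairing by replicate number was seen: deviations of same-numbered arrays correlated at -0.24, -0.12 and 0.06. Those of differently numbered arrays correlated between -0.21 and 0.27. Whether arrays were handled in pairs cannot be told from these values. No gene had several named probe sets, so that alternative was not run.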
